A study of Mus musculus with 5 samples.

Results

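Uncoupling and related heat-producing genes were followed as a group of 6 genes, Ucp1, Dio2, Cidea, Ucp2, Ucp3 and Mtus1, chosen by symbol from the 32285 genes of each of 2 matrices of single-nucleus RNA sequencing (snRNAseq) of mouse interscapular brown adipose tissue (iBAT). Each symbol matched 1 row of each matrix. The first matrix holds 1 library of littermate control (WT) and 1 library of Ucp1-STX4KO mice, both 3 months old. In Ucp1-STX4KO mice, Cre recombinase driven by the Ucp1 promoter deletes floxed Stx4, so the deletion acts in cells that use that promoter, the promoter of 1 of the 6 genes. The second matrix, the aging matrix, holds 1 library each of C57BL/6J mice 2, 12 and 24 months old. All mice were male, nuclei were sorted before the 10x Genomics 3′ assay, and the sources used here do not give which mice went into which library. Barcodes end in a suffix (1, 2 or 3) that parts the libraries of a matrix, but no label ties it to a sample, so libraries are called by their suffix, no genotype or age is compared, and nothing here has a replicate.

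Brown adipocytes burn fuel to make heat. Noradrenaline acting through β-adrenergic receptors and cyclic AMP releases fatty acids and raises transcription of the uncoupling machinery, and UCP1 in the inner mitochondrial membrane lets protons back into the matrix without making ATP. Among the genes followed, Ucp1 encodes that carrier, and Ucp2 and Ucp3 encode its closest relatives, of which UCP2 is best known from immune cells and UCP3 from skeletal muscle. Dio2 encodes the deiodinase that makes active thyroid hormone inside the cell and is a classical cyclic AMP target, Cidea encodes a lipid droplet protein abundant in brown fat, and Mtus1 encodes a protein of microtubules and mitochondria.

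On mouse build GRCm38 (mm10), Ucp1 lies at chr8:83290352-83298452 on the plus strand and Mtus1 at chr8:40990914-41133726 on the minus strand. Dio2 lies at chr12:90724552-90738438 on the minus strand. Ucp3 (chr7:100472990-100486432) and Ucp2 (chr7:100493337-100502020) are neighbours on the plus strand, with 6904 bases between the end of Ucp3 and the start of Ucp2. All 6 are protein-coding, and counts cover each gene as a whole, so no exon or transcript is singled out.

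The bases before the start of transcription are shown for the 4 of 6 genes that had a window in the RefSeq promoter table of GRCm38.p6. Capitals mark the cyclic AMP response element TGACGTCA, its half-site TGACG or, read on the other strand, CGTCA, and the TATA box form TATAAA. The windows run 5′ to 3′ on the gene's strand over 250 bases and end just before the RefSeq start. They are chr8:83290098-83290347 on the plus strand for Ucp1, chr12:90739039-90739288 on the minus strand for Dio2, chr7:100493108-100493357 on the plus strand for Ucp2 and chr7:100472741-100472990 on the plus strand for Ucp3. The RefSeq start of Dio2 lies upstream of the start in the annotation used for gene positions, so its window is not adjacent to the interval given for the gene. The other windows also do not end exactly at the intervals given. The Ucp1 window ends a few bases short of its interval and the Ucp2 window runs into its interval. The Ucp3 window ends on the first base of its interval.
Ucp1: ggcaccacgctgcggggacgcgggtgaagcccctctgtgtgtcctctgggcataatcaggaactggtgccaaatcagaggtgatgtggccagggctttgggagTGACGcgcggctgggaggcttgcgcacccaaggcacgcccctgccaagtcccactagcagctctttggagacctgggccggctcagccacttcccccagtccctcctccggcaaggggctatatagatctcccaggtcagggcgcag
Dio2: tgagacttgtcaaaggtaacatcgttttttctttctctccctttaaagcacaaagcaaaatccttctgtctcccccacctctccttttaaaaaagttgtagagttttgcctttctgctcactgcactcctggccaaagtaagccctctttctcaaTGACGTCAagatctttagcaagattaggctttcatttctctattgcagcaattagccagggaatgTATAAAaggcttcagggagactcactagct
Ucp2: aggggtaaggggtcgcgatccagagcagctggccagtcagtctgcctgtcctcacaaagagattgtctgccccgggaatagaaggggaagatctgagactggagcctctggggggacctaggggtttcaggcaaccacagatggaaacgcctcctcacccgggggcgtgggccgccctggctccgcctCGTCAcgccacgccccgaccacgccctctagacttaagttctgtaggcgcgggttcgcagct
Ucp3: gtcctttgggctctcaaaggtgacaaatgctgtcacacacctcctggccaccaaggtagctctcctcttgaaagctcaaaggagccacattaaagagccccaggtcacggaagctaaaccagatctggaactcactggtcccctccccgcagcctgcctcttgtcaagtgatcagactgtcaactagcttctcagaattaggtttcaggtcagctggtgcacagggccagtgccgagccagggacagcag
Only the Dio2 window among the 4 held a whole cyclic AMP response element, at base -95 from the start, and the string TATAAA, at base -30. Other forms of the TATA box were not searched for, and the Ucp1 window holds the letters tatata near its end. The whole element contains the half-site on both strands, and single half-sites stood at -147 in the Ucp1 window and, on the other strand, at -62 in the Ucp2 window. Of 32851 RefSeq windows of the same length, searched on both strands, 1.55% held the whole element, 17.8% a half-site and 12.4% TATAAA. The nuclear receptor half-site AGGTCA, held by 14% of all windows, was found in the Ucp1 window at -14 and in the Ucp3 window at -149 and -44. GC content was 64.8% before Ucp1, 41.6% before Dio2, 63.6% before Ucp2 and 54.8% before Ucp3. Such a match is a string of letters and not a site shown to be bound. Bases farther upstream were not searched, so a window without a match does not show that the gene lacks such an element. A link between these matches and the levels of the genes was not tested.

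Nuclei were placed in cell types by 9 marker lists that hold none of the 6 genes. An adipocyte nucleus had at least 4 of 8 markers (Adipoq, Plin1, Lipe, Pnpla2, Dgat2, Pparg, Acsl1, Gpd1) at a combined 6000 or more per 1000000 UMIs (unique molecular identifiers, each standing for 1 captured RNA molecule). Other types needed 3 markers at 2000 on the same scale. This gave 15028 adipocyte nuclei (10338 with suffix 1 and 4690 with suffix 2) and 2546 nuclei of other types in the first matrix, and 1543 adipocyte nuclei (659, 649 and 235) and 21799 of other types in the aging matrix. The labels call the samples brown adipocytes, but most gated nuclei of the aging matrix carried endothelial or mural markers. Median UMIs per barcode ranged from 3284 to 5998 in the first matrix and from 891 to 1720 in the aging matrix. Of the barcode sequences, 46 in the first matrix and 199 in the aging matrix occurred in more than 1 library. Markers of the adipocyte list were found outside adipocyte nuclei too, at a summed 1904 to 4937 CPM (counts per 1000000 UMIs) in the other types of the first matrix and 181 to 3509 CPM in those of the aging matrix, against 13076 and 16536 CPM and 12001 to 13710 CPM in adipocyte nuclei.

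Ucp1, Dio2, Cidea and Ucp3 were higher in adipocyte nuclei in both matrices, Mtus1 was shared with mural, fibroblast and muscle nuclei, and Ucp2 was mainly a gene of other cells. All 6 genes were above the limit of 200 UMIs set for a comparison of adipocyte nuclei with other types. In the first matrix 4 of the 6 had an adipocyte level at least 2 times that of the other types together, beside 16.5% of the 12963 genes compared. The same 4 genes did in the aging matrix, beside 18.9% of 11405 genes. Intervals are at 95%, from Poisson counts for levels, from conditional binomial counts for ratios and from Clopper-Pearson for shares. They cover counting error only. The 2763 nuclei of the first matrix inside the study's stated range of UMIs and genes, all with suffix 2, gave 2 of 6 (Cidea and Ucp3), with Ucp1 at 1.82 times and Dio2 at 1.92 times. Clusters in place of the gate also ended the call of Dio2 in the first matrix, at 1.64 times. The share of all genes past 2-fold was not computed for these 2 alternatives, so their counts are not set against all genes. With all gated nuclei of suffix 2 it was 10.6% of 9981 genes. Nuclei within 20% of the adipocyte limit made up 6.24% and 8.50% of the matrices.

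Adipocyte nuclei held 94.7% of all Ucp1 UMIs of the first matrix (103227 in all), 91.8% of those of Dio2, 96.3% of Cidea, 96.2% of Ucp3, 91.2% of Mtus1 and 35.9% of Ucp2. The shares were smaller in the aging matrix, where fewer nuclei were adipocytes, at 40.8% for Ucp1, 52.5% for Dio2, 36.95% for Cidea, 57.75% for Ucp3, 12.3% for Mtus1 and 2.67% for Ucp2. Adipocyte nuclei made up 15028 of the 20307 barcodes of the first matrix and 1543 of the 30000 of the aging matrix. Their share of the UMIs of all genes was not computed, so these shares alone show no preference for adipocyte nuclei. Counted per adipocyte nucleus, without regard to depth, Ucp1 gave 7.15 and 5.09 UMIs with suffixes 1 and 2 of the first matrix and 3.015, 4.17 and 1.485 UMIs with suffixes 1, 2 and 3 of the aging matrix. Cidea gave 8.89 and 4.195 UMIs, then 2.60, 2.185 and 2.48 UMIs, in the same order. Dio2 gave 0.454 and 3.596 UMIs, then 0.267, 0.493 and 0.213 UMIs. Ucp3 gave 0.834 to 1.99 UMIs in the first matrix and 0.323 to 0.709 in the aging matrix, Mtus1 1.07 to 2.30 and 0.601 to 0.892, and Ucp2 at most 0.0216. The order of libraries was that of the CPM for Ucp1, Dio2 and Ucp3 within each matrix.

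Ucp1 was present in adipocyte nuclei of every library. It stood at 1021 CPM (95% interval 1014 to 1028) with suffix 1 and 848 CPM (838 to 859) with suffix 2 of the first matrix. The aging matrix gave 1138 CPM (1089 to 1189), 1790 CPM (1723 to 1859) and 539 CPM (484 to 598) with suffixes 1, 2 and 3. The libraries of the first matrix differed 1.203-fold, while suffix 2 was the highest and suffix 3 the lowest of the aging matrix. In nuclei of the other types together Ucp1 was at 328 and 231 CPM in the first matrix and at 21.8, 232 and 43.2 CPM in the aging matrix, in the same order of suffixes. Adipocyte nuclei held 3.78 times (3.62 to 3.95) the level of other nuclei in the first matrix with its libraries pooled. Within suffixes 1 and 2 this ratio was lower, at 3.115 times (2.89 to 3.36) and 3.68 times (3.48 to 3.89). In the aging matrix it was 11.8 times (11.3 to 12.3) pooled, and single libraries gave 52.3, 7.71 and 12.4 times.

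Cidea followed the same division. Its adipocyte level was 1270 CPM and 699.6 CPM in the first matrix and 981, 939 and 899.7 CPM in the aging matrix, where the libraries barely differed. Adipocyte nuclei exceeded other nuclei 6.33-fold (6.00 to 6.68) in the first matrix and 9.98-fold (9.54 to 10.4) in the aging matrix. Other nuclei held 307 and 126 CPM, then 21.6, 189 and 47.9 CPM, so the excess by library was 4.14-fold and 5.56-fold in the first matrix but ranged from 4.97-fold (suffix 2) to 45.4-fold (suffix 1) in the aging matrix, with 18.8-fold for suffix 3. Over the 24 groups of at least 50 nuclei formed by cell type and library, the CPM of Cidea and of Ucp1 had a Pearson's r of 0.96 on the log2(CPM + 1) scale, and the gene most like each was Pck1, which encodes the enzyme that opens glyceroneogenesis (r = 0.98 for both, among 11203 genes). These groups share libraries and the adipocyte RNA found in all of them, and the values are a description.

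Dio2 had the widest range between the libraries of the first matrix of the 5 genes with enough UMIs to compare, while in the aging matrix that of Ucp1 was wider. Its adipocyte level was 64.9 CPM (63.0 to 66.8) with suffix 1 and 599.6 CPM (591 to 609) with suffix 2 of the first matrix. The libraries of the aging matrix held 101 CPM (86.5 to 117), 212 CPM (189 to 236) and 77.2 CPM (57.3 to 102). Suffix 2 was therefore the highest in each matrix, with no overlap of intervals. Outside adipocyte nuclei Dio2 was lower, at 16.4 and 96.5 CPM in the first matrix and 3.54, 10.6 and 3.46 CPM in the aging matrix. The adipocyte excess was 2.88-fold (2.65 to 3.13) in the first matrix and 22.85-fold (19.6 to 26.65) in the aging matrix. By type, Dio2 ran from 59.4 CPM in skeletal muscle nuclei to 158 CPM (128 to 193) in mural nuclei with suffix 2 of the first matrix, and did not pass 24.5 CPM in any type with suffix 1 or 11.4 CPM in any type with more than 50 nuclei of the aging matrix. Pooled over libraries, the first ratio mixes unequal shares of adipocyte nuclei, and within suffix 1 and suffix 2 it was 3.96-fold (2.85 to 5.70) and 6.21-fold (5.70 to 6.78).

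Ucp3 was enriched 4.57-fold (4.15 to 5.04) in adipocyte nuclei of the first matrix and 36.3-fold (31.4 to 42.0) in those of the aging matrix. By library these ratios were 5.52 and 2.575, then 81.6, 19.4 and 33.9. It stood at 284 and 139 CPM in the first matrix and at 268, 201 and 117 CPM in the aging matrix, where suffix 1 was the highest. The exception among other types was skeletal muscle, gated in 328 nuclei of suffix 2 of the first matrix. There Ucp3 reached 146 CPM (128 to 167), 105% (91.5 to 120) of the adipocyte level of the same library. Hk2, which encodes the hexokinase of muscle and fat, was the gene most like Ucp3 over the 24 groups (r = 0.945).

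**Figure D1:**
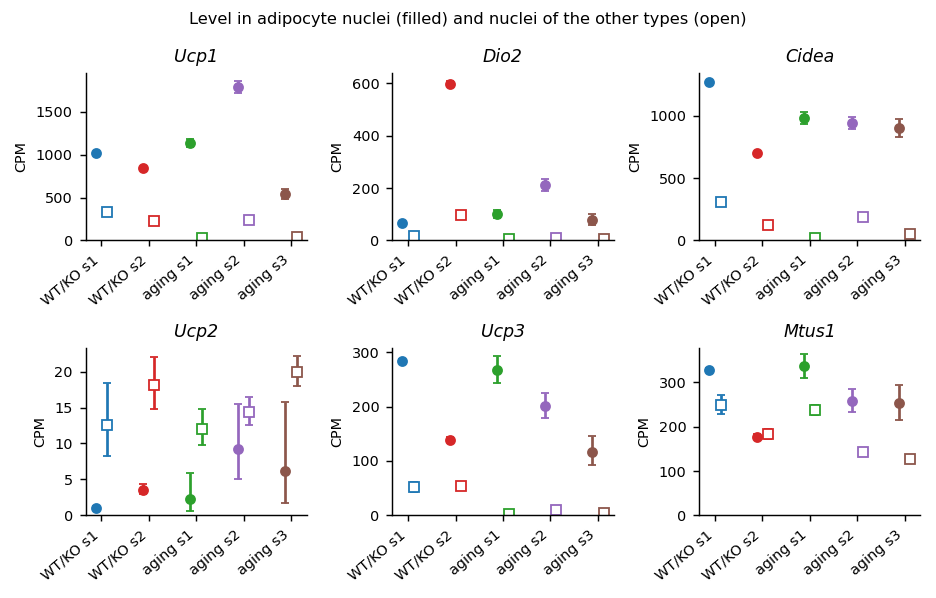
Level of each gene (CPM, linear axis from 0) in adipocyte nuclei (filled circles) and in nuclei of all other gated types together (open squares), for the libraries of the first matrix (WT/KO s1 and s2 are suffixes 1 and 2) and of the aging matrix (suffixes 1 to 3), with 95% Poisson intervals. Dio2 with suffix 2 of the first matrix (599.6 CPM) stands apart from its other adipocyte levels, and Ucp2 is higher in other nuclei than in adipocyte nuclei.

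Ucp2 was scarce in adipocyte nuclei. Only 73 and 101 UMIs, or 1.01 CPM (0.79 to 1.27) and 3.59 CPM (2.92 to 4.36), were counted in the adipocyte nuclei of the first matrix, and 4, 14 and 4 UMIs in those of the aging matrix. Other nuclei held more in each library, at 12.6 and 18.2 CPM in the first matrix and 12.1, 14.4 and 20.01 CPM in the aging matrix, although the intervals overlapped with suffix 2 of the latter. The adipocyte level was 0.104 times (0.0823 to 0.131) that of other nuclei in the first matrix and 0.343 times (0.213 to 0.523) in the aging matrix. Macrophage nuclei had the highest level, at 113 CPM (71.9 to 170) and 88.55 CPM (69.2 to 112) in the first matrix. Endothelial nuclei held 24.5 and 20.4 CPM there and 31.2, 15.4 and 22.6 CPM in the aging matrix. The first of these values rests on few UMIs, since only 4.76% of the 42 endothelial nuclei with suffix 1 of the first matrix held a Ucp2 UMI. With suffix 1 of the first matrix, fibroblast or progenitor nuclei held 0 UMIs of Ucp2 in 309 nuclei, while they carried 285 CPM of Ucp1. The genes most like Ucp2 over the 24 groups were Plekho1 (r = 0.90), Themis2 (r = 0.89) and Plcg2 (r = 0.88), of which Themis2 and Plcg2 belong to leukocyte signalling.

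Mtus1 was as high in mural nuclei as in adipocyte nuclei, or higher. Its adipocyte level was 328 and 178 CPM in the first matrix and 337, 258 and 253 CPM in the aging matrix. Nuclei of pericytes or smooth muscle held 359 and 354 CPM, and 342, 437 and 265 CPM, in the same order of libraries. Relative to adipocyte nuclei of the same library these were 109% (94.8 to 126) and 199% (173 to 228), and 102% (92.2 to 112), 169% (148.5 to 193) and 105% (87.3 to 126). Fibroblast or progenitor nuclei stood at 58.5% to 81.1% of the adipocyte level, skeletal muscle nuclei of suffix 2 at 157% (142 to 173.5). Macrophage nuclei of the first matrix held 49.3 and 38.7 CPM. Over all other types the adipocyte level was 1.42 times (1.35 to 1.49) that of other nuclei in the first matrix (1.32 times within suffix 1 and 0.9675 times within suffix 2) and 1.91 times (1.79 to 2.03) in the aging matrix. The genes most like it were Smarcd3 (r = 0.85), Rhou and 1700120O09Rik, and its r with Ucp1 over the same groups was 0.07.

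To read the levels in other nuclei, 5 adipocyte genes outside the gate (Adrb3, Cidec, Pck1, Thrsp, Plin4) were taken as a scale of how much adipocyte RNA those nuclei held. In fibroblast or progenitor nuclei these 5 ranged from 12.3% to 41.3% and from 9.96% to 22.1% of their adipocyte level in the first matrix. A gene was counted above all 5 where its whole interval lay above the highest of them. No group met this for Ucp1, Dio2 or Cidea, and only skeletal muscle did for Ucp3. The value of Ucp1 itself, though not its whole interval, was above the highest of the 5 in 3 groups, namely macrophage nuclei (29.99%, 26.0 to 34.4, against 27.1%) and fibroblast or progenitor nuclei (24.1%, 21.8 to 26.6, against 22.1%) with suffix 2 of the first matrix and 34 Schwann nuclei with suffix 3 of the aging matrix (27.2%, 16.0 to 43.7, against 27.04%). Mtus1 was above all 5 in fibroblast or progenitor and in mural nuclei of each of the 5 libraries. In those nuclei 65.7% and 54.3% of genes were also above all 5 with suffix 1 of the first matrix, and 91.2% and 70.6% with suffix 2. With suffixes 1, 2 and 3 of the aging matrix the shares were 92.9%, 74.7% and 90.4% in fibroblast or progenitor nuclei and 95.2%, 83.3% and 96.1% in mural nuclei, so this position is common. Mtus1 and Ucp3 were above all 5 in skeletal muscle nuclei beside 77.5% of genes, and Ucp2 in T lymphocyte nuclei of the same library beside 41.6%. In Schwann nuclei 12.9% of genes were above all 5 with suffix 2 of the first matrix and 90.3%, 39.2% and 57.8% in the aging matrix, where Ucp2 (suffix 1) and Mtus1 (suffixes 1 and 3) were among them. Ucp2 was above all 5 in macrophage and endothelial nuclei of each library in which they could be compared, beside 26.6% and 16.9% of genes with suffix 1 of the first matrix and 78.3% and 51.2% with suffix 2. The value for endothelial nuclei with suffix 1 of the first matrix rested on few UMIs. Ucp2 was also above all 5 in fibroblast or progenitor nuclei (suffix 2 of the first matrix, suffixes 1 and 2 of the aging matrix) and in mural nuclei (suffix 2 of the first matrix, suffixes 1 and 3 of the aging matrix), and Mtus1 in endothelial nuclei with suffixes 1 and 3 of the aging matrix. For the aging matrix the shares of genes above all 5 were 35.2% and 51.8% in macrophage nuclei (suffixes 2 and 3) and 90.2%, 74% and 91.1% in endothelial nuclei. Groups with such shares single out no gene. The part of free RNA in the levels of other nuclei was not tested.

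**Figure D2:**
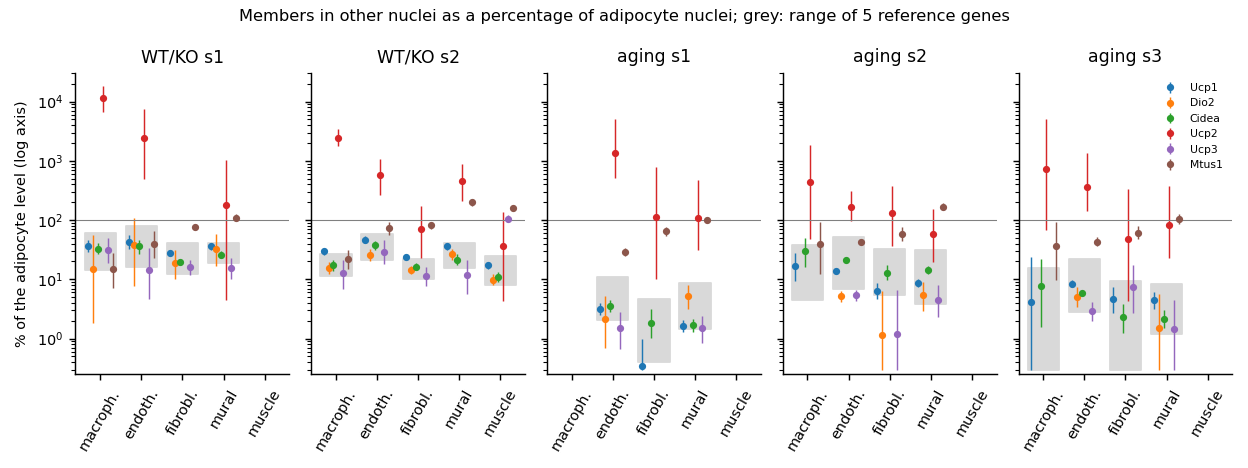
Level of each gene in 5 other cell types as a percentage of its level in adipocyte nuclei of the same library (log axis, 95% intervals), 1 panel per library; mural means pericyte or smooth muscle, and grey boxes span the 5 reference genes. Points at 0 UMIs are not drawn. Ucp2 in macrophage nuclei, Mtus1 in mural nuclei and Ucp3 in muscle nuclei lie above the grey boxes.

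The share of nuclei with a UMI was compared at a depth of 1000 UMIs, to which each deeper nucleus was thinned. With suffix 1 of the first matrix, 57.0% (56.0 to 58.0) of adipocyte nuclei held a Ucp1 UMI and 6.11% (5.66 to 6.59) a Dio2 UMI. With suffix 2 these shares were 44.1% (42.6 to 45.5) and 35.9% (34.5 to 37.3). Before thinning they were 94.6% and 25.6% with suffix 1, at a median of 6211 UMIs, and 72.3% and 67.7% with suffix 2, at a median of 5028 UMIs. Fibroblast or progenitor nuclei held a Ucp1 UMI in 27.8% (22.9 to 33.2) and 21.3% (18 to 24.9), at unthinned medians of 3529 and 3085 UMIs. Their shares for Dio2 were 0.647% (0.0785 to 2.32) and 12.1% (9.50 to 15.1), below the adipocyte shares in both libraries. Small groups of other types with suffix 1 were less apart, with Ucp1 in 42.9% (27.7 to 59.0) of 42 endothelial nuclei and Dio2 in 4.76% (0.582 to 16.2) of these and 3.51% (1.30 to 7.48) of 171 mural nuclei, intervals that overlapped the adipocyte shares. Ucp1 in the aging matrix was found in 53.4%, 74.7% and 31.1% of thinned adipocyte nuclei and Dio2 in 7.57%, 15.4% and 7.66%, against 0.326%, 12.8% and 4.19% for Ucp1 in fibroblast or progenitor nuclei and 0 of 307, 172 and 215 of these nuclei for Dio2, which allows a share of up to 1.19%, 2.12% and 1.70%.

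Within adipocyte nuclei, 5 of the 6 genes had at least 200 UMIs and were compared between libraries, and Ucp2 with its 174 and 22 UMIs was not. In the first matrix 4 of the 5 (Dio2, Cidea, Ucp3, Mtus1) differed at least 1.5-fold between the suffixes, beside 51.7% of 12173 genes. In the aging matrix 3 of the 5 (Ucp1, Dio2, Ucp3) did so between the highest and the lowest suffix, beside 49.8% of 3634 genes. Differences of this size were common among all genes. They compare single libraries of unknown condition.

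Dio2 was the exception by its size and direction. Its level with suffix 2 of the first matrix was 9.24 times (8.95 to 9.55) that with suffix 1, and 1.89% of genes had a ratio as high or higher. The ratio of the median gene was 0.77, so relative to that gene Dio2 differed 12-fold. Ucp1 moved little, at 0.831 times (0.819 to 0.843), and its order turned to 1.08 times when levels were taken relative to the median gene and to 1.02 times without nuclei holding a UMI of the white-like list, Cyp2e1, Aldh1a1, Retn and Nnat. Cidea, Ucp3 and Mtus1 were lower with suffix 2, at 0.551, 0.489 and 0.542 times, which is 1.82-fold, 2.04-fold and 1.85-fold the other way, and relative to the median gene only Ucp3 of these 3 still passed 1.5-fold. In nuclei of the other types together, Dio2 was also higher with suffix 2 (96.5 against 16.4 CPM).

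Other genes of the pathway also differed in both directions. Of 22 genes chosen for their family or pathway, 18 could be compared in the first matrix, of which 6 were at least 1.5-fold higher with suffix 2, beside 12.8% of all genes, and 7 at least 1.5-fold lower, beside 38.9%. The 6 were Ppargc1a, which encodes the coactivator PGC-1α, Elovl3, Slc25a30, Cidec, Kcnk3 and Adrb3. Ppargc1a went from 776 to 11899 CPM, a ratio of 15.3 (15.2 to 15.5), and Elovl3, a fatty acid elongase, from 8.45 to 32.7 CPM, a ratio of 3.87 (3.49 to 4.29). Among the 7 were the thyroid hormone receptor gene Thra (116.5 to 25.1 CPM, ratio 0.215), the respiratory chain subunits Cox8b and Cox7a1, the proton channel Otop1, and Slc25a14 and Slc25a27, relatives of the uncoupling proteins. Thrb, the other thyroid hormone receptor gene, was at 1036 and 921 CPM, Prdm16 at 484 and 643.5 CPM and Ebf2 at 1195 and 1252 CPM, none past 1.5-fold.

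**Figure D3:**
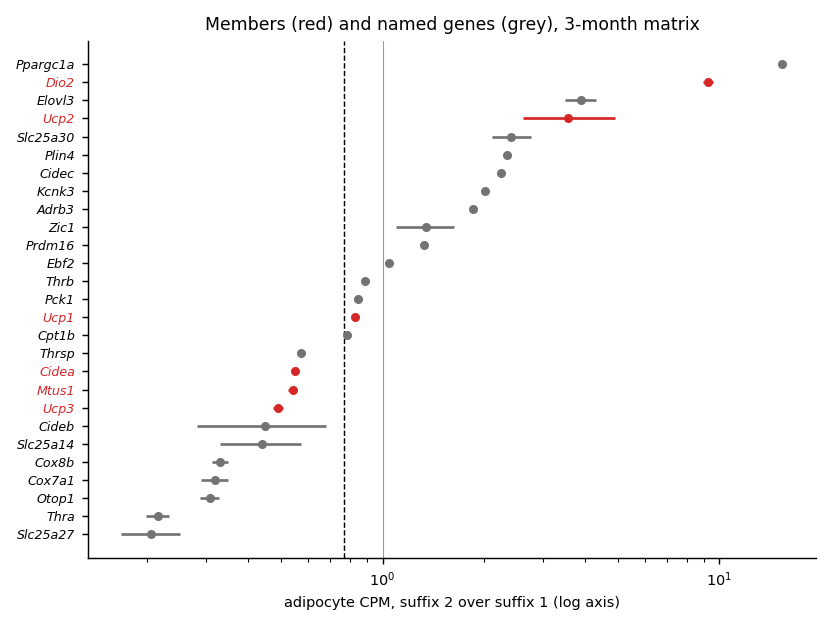
Adipocyte CPM with suffix 2 over suffix 1 of the first matrix (log axis) with 95% intervals, for the genes followed (red) and for the pathway and reference genes reported here (grey) with at least 150 UMIs over both libraries. The dashed line is the median of all genes compared (0.77). Ppargc1a (15.3) and Dio2 (9.24) are the highest shown, and Ucp1 (0.831) lies near the median.

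Suffix 2 was the highest for both Ucp1 and Dio2 in the aging matrix. It exceeded suffix 3 in Ucp1 by 3.32-fold (2.97 to 3.73) and in Dio2 by 2.75-fold (2.03 to 3.78), and exceeded suffix 1 by 1.57-fold (1.48 to 1.67) and 2.10-fold (1.74 to 2.54). Dio2 with suffix 3 was 0.765 times (0.5475 to 1.05) that with suffix 1, an interval that includes no difference. Ucp3 had another order, with suffix 1 the highest and suffix 3 the lowest, 2.28-fold (1.79 to 2.95) apart. Cidea differed 1.091-fold (0.992 to 1.2) and Mtus1 1.33-fold (1.12 to 1.59) between their highest and lowest libraries. Mitochondrial transcripts took 3.89%, 12.6% and 6.35% of UMIs with suffixes 1, 2 and 3, and their part in these values was not tested. Of 13 pathway genes that could be compared, 3 were at least 1.5-fold higher and 3 lower with suffix 2 than with suffix 1, beside 10.6% and 23.4% of all genes. With suffix 3 against suffix 1 the counts were 0 and 4, beside 10.3% and 15.4%, and with suffix 3 against suffix 2 they were 1 and 3, beside 12.9% and 9.55%. Among these genes Thrb was at 2286, 679 and 1003 CPM, Cox8b at 69.9, 229 and 89.5 CPM, and Ppargc1a at 442, 587 and 498.5 CPM.

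As a list, the pathway genes leaned to adipocyte nuclei more than all genes did. Many were picked as known genes of the thermogenic programme, and Adrb3 and Cidec also served as reference genes for adipocyte RNA. That choice favours such a lean, so the counts describe the list and are no finding. In the first matrix 7 of 18 compared had an adipocyte level at least 2 times that of other nuclei, beside 16.5% of all genes (Cidec, Adrb3, Ppargc1a, Prdm16, Kcnk3, Otop1, Cpt1b) and 2 (Slc25a27, Zic1) had the reverse, with a median ratio of 1.65 beside 1.03 for all genes. Of 17 compared in the aging matrix 10 did, beside 18.9% of all genes, with Ebf2 and Thrb among the additional ones, and 1 (Slc25a30) had the reverse, with a median of 3.18 beside 1.02. Ratios of the first matrix pool libraries with unequal shares of adipocyte nuclei. Elovl3 was at 1.61 times pooled, short of the limit, but at 2.26 and 2.81 times within suffixes 1 and 2. Ppargc1a was at 2.27 times pooled and 5.03 and 5.18 times within them, while Cox8b went from 1.69 to 1.09 and 1.04 times. Kcnk3, a potassium channel of brown adipocytes, had pooled ratios of 6.71 and 11.9 in the 2 matrices. Adrb3, the β3-adrenergic receptor gene, had 4.10 and 22.2. The 3 relatives of the uncoupling proteins had pooled ratios below 1 in both matrices, Slc25a27 at 0.358 and 0.538 times, Slc25a14 at 0.562 and 0.536 times and Slc25a30 at 0.653 and 0.249 times. Within suffix 2 of the first matrix Slc25a30 was at 1.25 times (0.965 to 1.63). The thyroid hormone receptor genes parted, with Thrb at 1.94 and 24.5 times and Thra at 0.918 and 1.15 times the level of other nuclei. Within suffixes 1 and 2 of the first matrix Thrb was at 4.14 and 1.49 times, past the 2-fold limit with suffix 1, and Thra at 0.735 and 0.327 times. Dio1 and Dio3, the other deiodinase genes, and Cideb had too few UMIs to compare in either matrix.

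Correlations among the 6 genes were weak at this depth, where many nuclei hold 0 or 1 UMI of each, and a weak value in such sparse counts is no finding. They were taken across adipocyte nuclei of 1 library, thinned to 1000 UMIs, so the points share library and depth and describe those nuclei alone. No pair of the 15 reached Pearson's r of 0.1 in every library of a matrix, in either matrix. By the looser measure of r of at least 0.1 in a single library, 0.721% and 4.01% of the pairings of one of these genes with another gene in a library passed, in the first matrix all of them with suffix 2. With suffix 1 of the first matrix (10338 nuclei) the 15 values lay between -0.019 and 0.029, and no other gene had an r of 0.1 or more with any of the 6, while Ucp1 with Fam13a was at -0.11. With suffix 2 (4410 nuclei) Ucp1 had an r of 0.23 with Cidea and 0.17 with Dio2, and -0.065 with Mtus1. In the aging matrix Ucp1 and Dio2 had an r of 0.13, 0.16 and -0.020 over 608, 649 and 235 nuclei, and the only other pair beyond 0.1 in either direction was Dio2 with Mtus1 at -0.15 with suffix 3.

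Nuclei were also divided by their own Ucp1 count. With suffix 2 of the first matrix, the mean Dio2 count per 1000 UMIs was 0.4499 (0.424 to 0.477) in the 2467 nuclei without a Ucp1 UMI. It was 0.598 with 1, 0.783 with 2 and 0.830 (0.748 to 0.919) in the 448 nuclei with 3 or more. Cidea went from 0.508 to 1.06 and Ppargc1a from 7.11 to 20.1 over the same steps, while Mtus1 went from 0.208 (0.191 to 0.227) to 0.136 (0.104 to 0.175). Ucp3 was at 0.125 and 0.143, with overlapping intervals. With suffix 1 of the first matrix Dio2 was at 0.0643 (0.0571 to 0.0722) in nuclei without Ucp1 and 0.0775 (0.0623 to 0.0954) in those with 3 or more. Cidea was at 1.255 and 1.345, and Mtus1 at 0.349 and 0.3345, and the intervals of all 3 genes overlapped. Ppargc1a went from 0.7742 (0.7485 to 0.8005) to 0.8554 (0.8027 to 0.9106) there, without overlap. Pck1 was also higher and Thrb lower in nuclei with 3 or more, each without overlap. With suffix 2 of the aging matrix Dio2 went from 0.116 (0.0698 to 0.181) to 0.362 (0.276 to 0.467), and Cidea was at 1.05 and 0.957. Dio2 with suffix 1 of that matrix went from 0.0495 (0.0270 to 0.0830) to 0.185 (0.108 to 0.296), and with suffix 3 from 0.105 to 0.0833, the latter in 12 nuclei. With suffix 2 of the aging matrix mitochondrial transcripts were among the lowest r of Ucp1 (mt-Cytb, -0.22) and of Dio2 (mt-Atp6, -0.19). Their part in the steps of that library was not tested.

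**Figure D4:**
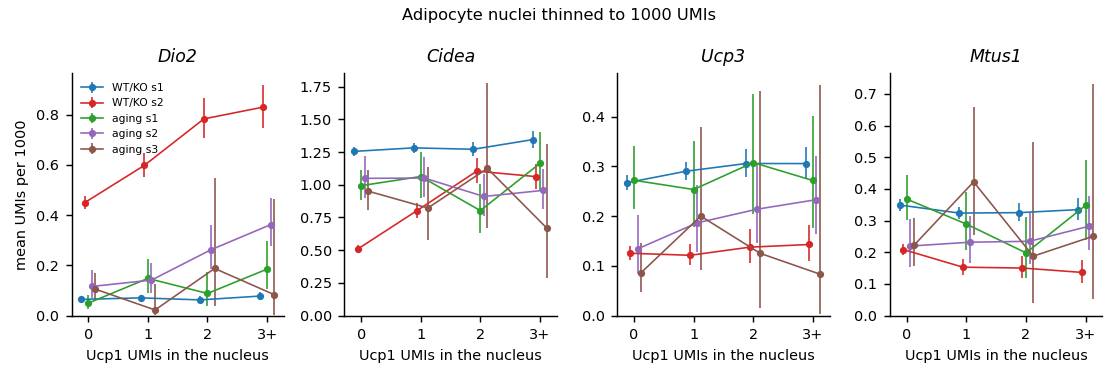
Mean UMIs per 1000 of 4 genes (linear axis from 0, 95% intervals) in adipocyte nuclei thinned to 1000 UMIs, by the number of Ucp1 UMIs in the same nucleus (0, 1, 2, 3 or more), 1 line per library. With suffix 2 of the first matrix Dio2 and Cidea are higher and Mtus1 is lower in nuclei with more Ucp1, while the lines of suffix 1 are close to level.

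With suffix 2 of the first matrix the highest r of Ucp1 among 3473 genes, named after their values were seen, were with Ppargc1a (0.46), Ppara (0.39) and Ppargc1b (0.37), all regulators of fat oxidation, and the lowest with Car3 (-0.38), Slc1a5 (-0.34) and Cidec (-0.34). Dio2 and Cidea shared Ppargc1a and Slc4a4 among their 5 highest and Car3, Slc1a5 and Cidec among their 5 lowest, while the highest r of Mtus1 was 0.10, with Zeb2, and its lowest -0.13, with Ppargc1a. With suffix 1 the highest r of Ucp1 was 0.073, with Gnas.

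Counts of Ucp1 were spread more widely over adipocyte nuclei than Poisson sampling of molecules gives, in every library. Its variance over mean was 1.41 and 1.83 for the suffixes of the first matrix, then 1.91, 1.51 and 1.72 for those of the aging matrix, beside medians of 1.17, 1.40, 1.27, 1.40 and 1.16 for genes of like mean. Only the last value passed the upper end of the range that holds 95% of such genes (1.65). Dio2 passed that end with suffix 1 of both matrices and suffix 2 of the aging matrix, where its ratio was 1.73 beside a median of 1.07 and an end of 1.29. Mtus1 lay between 0.970 and 1.12.

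Adipocyte nuclei were also divided by marker lists that hold none of the 6 genes. With suffix 2 of the first matrix, 879 of 4102 nuclei thinned to 2000 UMIs held 2 or more UMIs of the white-like list (Cyp2e1, Aldh1a1, Retn, Nnat) and 2503 held 0, with 292 nuclei at the limit itself. In the former Ucp1 was 0.203 times (0.182 to 0.225), Cidea 0.299 times (0.271 to 0.329), Dio2 0.344 times (0.310 to 0.380) and Ucp3 0.586 times (0.493 to 0.693) the level of the latter, while Mtus1 was 1.83 times (1.63 to 2.05) as high. With suffix 1 only 110 of 10338 nuclei were that rich. The ratios there were 0.622 (0.523 to 0.734) for Ucp1, 0.446 (0.371 to 0.532) for Cidea and 0.618 (0.441 to 0.842) for Ucp3. Those for Dio2, 1.14 (0.648 to 1.85), and Mtus1, 1.19 (0.951 to 1.48), had intervals that include no difference. Adipoq, which encodes adiponectin and is a marker of the adipocyte gate, was 2.43 times (2.12 to 2.78) as high in the white-like nuclei of suffix 2. With suffix 1 Adipoq was at 1.30 times (0.984 to 1.69), which includes no difference.

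**Figure D5:**
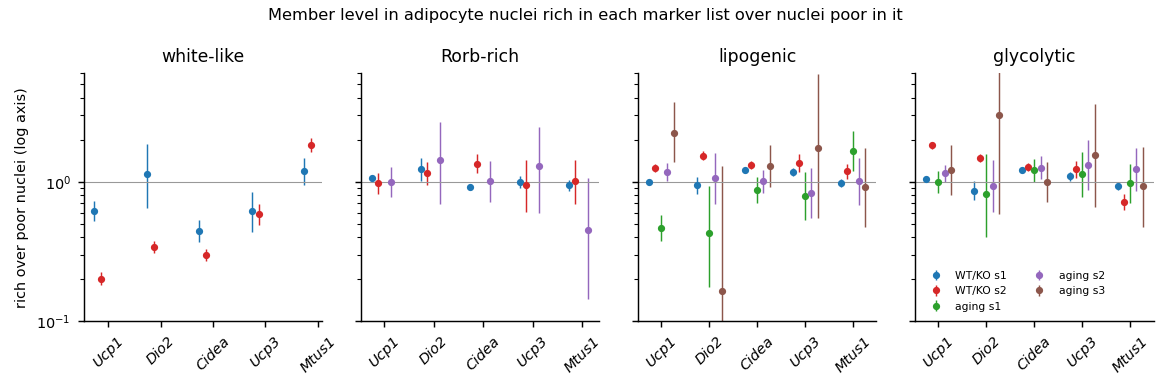
Level of 5 genes in adipocyte nuclei rich in a marker list over nuclei poor in it (log axis, 95% intervals), 1 panel per list and 1 colour per library; a library with too few rich nuclei is not drawn. In white-like nuclei of suffix 2 of the first matrix Ucp1 is at 0.203 times and Mtus1 at 1.83 times the level of nuclei with 0 UMIs of the list.

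Nuclei rich in the glycolytic list (Pgk1, Ldha, Vegfa, Hk2) held more Ucp1 with suffix 2 of the first matrix, 1.83 times (1.72 to 1.94), and more Dio2, 1.48 times (1.38 to 1.58), and less Mtus1, 0.719 times (0.633 to 0.815). With suffix 1 these ratios were 1.05, 0.866 and 0.936. Nuclei rich in the lipogenic list (Fasn, Acly, Elovl6, Acaca) went different ways for Ucp1 among libraries of the aging matrix. The ratio was 0.467 (0.374 to 0.579) with suffix 1, 1.18 (1.02 to 1.35) with suffix 2 and 2.24 (1.38 to 3.71) with suffix 3, the last from 52 and 27 UMIs. Nuclei with a UMI of Rorb, a nuclear receptor gene, had Ucp1 at 1.06, 0.978 and 0.999 times in the 3 libraries that could be compared. In those nuclei Dio2 was at 1.24 times (1.02 to 1.49) with suffix 1 and 1.15 times (0.953 to 1.38) with suffix 2 of the first matrix. Cidea went opposite ways there, at 0.925 times (0.881 to 0.970) with suffix 1 and 1.35 times (1.15 to 1.58) with suffix 2. With suffix 2 of the aging matrix Dio2 was at 1.43 times (0.695 to 2.66) and Cidea at 1.02 times (0.718 to 1.40), intervals that include no difference.

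Genes on the opposite strand overlap 5 of the 6, all but Ucp1, Cidea (chr18:67343604-67367785, plus strand) among them. Gm26512, which overlaps the start of Dio2, was at 18.01 and 28.8 CPM in adipocyte nuclei of the first matrix. B430010I23Rik, within Mtus1, was at 105.5 and 115.9 CPM. The strand setting of the count was not given in the sources used here, so reads of a gene and its antisense partner may not be fully parted.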

How the data were processed

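Nuclei from iBAT of male mice were measured by 10x Genomics 3′ snRNAseq in 5 libraries, 1 per condition, held in 2 pooled matrices. The deposited files are raw counts of UMIs per gene and nucleus that the authors made with Cell Ranger 6.1.2 on mm10, and the submitters' processing notes also name Seurat 4.1.0. The annotation release and the counting of introns were not given in the sources used here. Nuclei with at least 200 UMIs and 100 genes were gated by marker lists. Nuclei passing exactly 1 gate were used, those passing more than 1 were left out as possible doublets, and no doublet caller was run. A stated upper range of UMIs and genes was tried as an alternative, because it leaves no nucleus with suffix 1 of the first matrix.

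UMIs were summed over nuclei of a library and type and divided by the total, times 1000000 (CPM). Ratios were given for genes with at least 200 UMIs, with limits of 2-fold between types and 1.5-fold between suffixes. No p-value was computed, since 1 library per condition and an unknown tie of suffix to sample allow no test, and nuclei are not replicates. Correlations and shares used nuclei thinned to 1000 UMIs (2000 for divided adipocyte nuclei of the first matrix). A pseudocount of 1 CPM was used for the likeness of genes. The named genes were the 6, their fixed family and pathway lists, 5 reference genes and the 3 genes most like each. 1 gene of the pathway list is counted but not reported here. The members and lists were chosen with earlier results of these data known. Alternatives were other gates, clusters, scalings, thinning depths and left-out nuclei, and 3 of them (without nuclei holding a white-like UMI, for the correlations and for the comparison of suffixes, and without skeletal muscle nuclei) were chosen after seeing the data. The ratios and intervals were tested on simulated data with known folds. Python 3.11.15, numpy 2.4.6, scipy 1.17.1, pandas 2.3.3, scanpy 1.11.5 and matplotlib 3.10.9 were used.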

Additional observations from a re-analysis of the deposited data

Results flagged for a closer look

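All 6 genes were also found in nuclei that entered no comparison, above the level that 3 counts would give there. In the 2292 nuclei of the first matrix that passed no gate, where 3 counts are 0.538 CPM, Ucp1 was at 393 CPM, Dio2 at 167 CPM, Cidea at 281 CPM, Ucp2 at 29.3 CPM, Ucp3 at 45.95 CPM and Mtus1 at 117 CPM. In the 441 nuclei of that matrix that passed more than 1 gate (3 counts are 1.40 CPM), Ucp1 was at 576 CPM, Dio2 at 195 CPM, Cidea at 617 CPM, Ucp2 at 8.41 CPM, Ucp3 at 143 CPM and Mtus1 at 258 CPM. In the 1927 nuclei of the aging matrix that passed no gate (3 counts are 1.69 CPM), Ucp1 was at 216 CPM, Dio2 at 16.3 CPM, Cidea at 237 CPM, Ucp2 at 20.3 CPM, Ucp3 at 25.35 CPM and Mtus1 at 128 CPM. In the 2573 nuclei of the aging matrix that passed more than 1 gate (3 counts are 0.375 CPM), Ucp1 was at 305 CPM, Dio2 at 26.4 CPM, Cidea at 249 CPM, Ucp2 at 11.4 CPM, Ucp3 at 41.0 CPM and Mtus1 at 204 CPM.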

How the results depend on the processing

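Of 45 alternative values of the counts of genes or pairs past a limit, 43 stayed within 1.5 times the reported count. This bound is loose, because the counts of pairs were 0 throughout and a change by 1 in a small count of genes can stay within it. The count of genes at least 2 times higher in adipocyte nuclei of the first matrix was 2 in the stated range of UMIs and genes, which keeps suffix 2 alone. The count of genes at least 1.5-fold apart between its suffixes was 2 (Dio2 and Ucp3) when scaled to the median ratio over genes. The cause of either was not tested, and the share of all genes past a limit was not computed under any alternative. Clusters in place of the gate put Dio2 at 1.64 times and the count at 3 in the first matrix. In the aging matrix Mtus1 passed 2 times in the stated range (2.41), without the 8% of nuclei with the most UMIs (2.07) and as a mean of per-nucleus values (2.09), and passed 1.5-fold between suffixes by clusters (1.55). No pair reached r of 0.1 in every library under any alternative run. Of single values 102 stayed the same and 84 moved, with Mtus1 over other nuclei turning to 0.9675 within suffix 2 of the first matrix. For adipocyte over other nuclei, the same means inside the interval of the reported value. Between suffixes it means the same highest and lowest library and a ratio within a small fixed fold of the reported ratio. Between suffixes the order turned for Ucp1 in the first matrix when scaled to the median (1.08) and without white-like nuclei (1.02), and the highest or lowest library of Cidea and Mtus1 in the aging matrix changed under 2 alternatives each. No paired analysis was possible because each condition has 1 library.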
